A study of Mus musculus with 8 samples.

Results

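Accessible chromatin was described at 10 genes, namely the genes of class I antigen presentation (*H2-K1*, *H2-D1*, *B2m*, *Tap1*, *Tap2*, *Tapbp*, *Psmb8*, *Psmb9*), their regulator *Nlrc5*, and *Cd274*, which encodes PD-L1. All peaks that overlapped the body of one of these genes or the 10 kb upstream of it were taken, whatever their height, and a peak shared by neighbouring genes was counted once. This gave 20 of the 69399 regions into which the peaks of all libraries merged. The rule that picks the regions uses gene positions and no peak value.

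The data were ATAC-seq peak lists, in which a transposase marks open DNA, from 8 libraries of mouse cutaneous squamous cell carcinoma (SCC) cells, 2 libraries for each of 4 lines. The tumours were raised with DMBA and TPA in K14CreER FAKflox/flox mice of the FVB strain, they carry a Ha-Ras driver, and focal adhesion kinase (FAK) was deleted in culture with 4-hydroxytamoxifen. FAK-/- cells lack FAK, and the other lines are the same deleted cells transduced by retrovirus with wild-type FAK (FAK-WT), with FAK whose nuclear localization is impaired (FAK-nls; R177A, R178A, R190A, R191A, R216A and R218A) or with kinase-deficient FAK (FAK-kd; K454R). All 4 lines therefore share the floxed and deleted *Ptk2* gene, the driver and the strain, and the constructs were put back into 1 clone, so that each line is a model of 1 tumour-derived clone. The cells were grown alone in culture, and the age of the mice is not given in the sources used here. Cells with a construct were selected with hygromycin, and no transduction or selection of the FAK-/- cells is described there. K14CreER is a Cre recombinase from a keratin promoter that tamoxifen switches on.

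Class I molecules carry peptides from inside the cell to its surface, where CD8+ T cells read them. The immunoproteasome cuts the peptides, the TAP transporter moves them into the endoplasmic reticulum, and tapasin holds the empty class I molecule close to the transporter while it is loaded. Interferon gamma raises most of these genes, in part through NLRC5, a transactivator that acts at class I promoters. PD-L1 on the surface of tumour cells restrains T cells through the receptor PD-1, and it too is induced by interferon.

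The lists held from 24383 and 24959 peaks in the FAK-nls libraries to 53703 peaks in FAK-WT replicate 1, with 32938 to 45937 in the others. Each region thus has a call or none in every library, and chromatin without a call may be open at a level that the caller did not pass. The number of reads per library, which the study gives, was not used here, and a longer list has more calls everywhere in the genome. The calls at the 10 genes are given below with this in view, first gene by gene and then between lines. Of the other cell types that a culture could hold, 3 of the 4 fibroblast markers (*Col1a1*, *Pdgfra*, *Pdgfrb*) had a called promoter in all 8 libraries and *Dcn* in none, while the 8 keratinocyte markers had between 1 and 2 called promoters per library. *Itga6* was called in all 8 and *Krt8* in 5, *Krt14* and *Krt18* in 1 each, and *Krt5*, *Trp63*, *Cdh1* and *Sfn* in none. With any region in the gene or 10 kb upstream counted, *Itga6*, *Sfn* and *Krt8* had a call in all 8 libraries. *Trp63* had one in 7, *Krt18* in 4, *Cdh1* in 3, *Krt5* in 2, those of FAK-WT, and *Krt14* in 1. Counted in this way, markers of other cell types had calls as well, with *Dcn* and *Cd68* in 8 libraries, *Ptprc* in 7, *Itgam* and the endothelial *Pecam1* in 6, *Cdh5* in 5 and the melanocyte marker *Dct* in 2, so this count does not set the keratinocyte markers apart. Of the 3 endothelial markers *Kdr* alone had a called promoter, in 1 library, and of the 3 melanocyte markers none had. The keratinocyte label of the cells thus had few of the 8 markers listed for it with a called promoter. Of the 7 immune markers *Cd68* alone had a called promoter, in 2 libraries, and *Ptprc* and *Cd3e* had none.

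The sequences on which the following results turn are shown with the letters of some known class I promoter elements in capitals. These are the interferon-stimulated response element (GAAA, 2 bases of any kind, GAAA), the kappa B element (GGG, 2 bases of any kind, TT, 1 base of any kind, CC) and the CCAAT box (CCAAT), sought on both strands, so that ATTGG is a CCAAT box read from the other one. The sequences come from RefSeq and its GRCm38.p6 genome, the build of the peak coordinates (mm10), and 8 of the 10 genes had an entry in the RefSeq promoter table. Each is written 5′ to 3′ on the strand given. Only the exact letters above were sought, so lower case does not show that an element in another form is absent.

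*B2m*, the 200 bases before the start (chr2:122147487-122147686, plus strand), shown since its region was called everywhere and holds all 3 elements.
B2m: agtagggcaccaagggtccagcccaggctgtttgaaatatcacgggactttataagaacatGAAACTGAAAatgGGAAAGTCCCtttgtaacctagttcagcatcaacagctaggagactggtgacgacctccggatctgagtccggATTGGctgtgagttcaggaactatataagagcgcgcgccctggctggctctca
*H2-K1*, the 200 bases before the start (chr17:34000348-34000547, minus strand), shown as the promoter of a class I heavy chain that was called in some libraries.
H2-K1: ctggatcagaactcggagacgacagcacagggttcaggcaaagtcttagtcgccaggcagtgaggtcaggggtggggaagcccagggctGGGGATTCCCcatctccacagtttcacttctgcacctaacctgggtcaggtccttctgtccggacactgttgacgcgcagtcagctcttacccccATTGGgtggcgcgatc
The 30 bases around the kappa B letters of *H2-K1* (chr17:34000442-34000471, minus strand) and of *H2-D1* (chr17:35262910-35262939, plus strand), shown because they are the same in both genes.
H2-K1 kappa B stretch: gaagcccagggctGGGGATTCCCcatctcc
H2-D1 kappa B stretch: gaagcccagggctGGGGATTCCCcatctcc
The 30 bases around the CCAAT box between *Tap1* and *Psmb9* (chr17:34187322-34187351, plus strand), shown because 1 region serves both genes.
Tap1/Psmb9 CCAAT stretch: gggctcggctttCCAATcagcggctgcgcg
*Nlrc5*, a stretch of its promoter region (chr8:94434224-94434408, plus strand), and the central 200 bases of a region in an intron (chr8:94458632-94458831, plus strand) that the FAK-WT pair alone had called.
Nlrc5 promoter: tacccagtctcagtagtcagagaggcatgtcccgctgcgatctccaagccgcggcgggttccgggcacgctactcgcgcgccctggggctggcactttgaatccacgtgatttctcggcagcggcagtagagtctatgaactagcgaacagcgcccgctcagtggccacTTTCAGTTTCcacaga
Nlrc5 +24.3 kb: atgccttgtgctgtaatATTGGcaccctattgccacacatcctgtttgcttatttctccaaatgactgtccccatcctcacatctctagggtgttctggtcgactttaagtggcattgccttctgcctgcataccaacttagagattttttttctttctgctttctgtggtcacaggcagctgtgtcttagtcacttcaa
*Cd274*, the 129 bases before the start (chr19:29367309-29367437, plus strand), shown because none of these elements was found there.
Cd274: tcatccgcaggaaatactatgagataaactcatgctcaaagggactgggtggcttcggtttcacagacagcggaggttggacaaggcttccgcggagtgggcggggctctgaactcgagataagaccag

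Over all genes, 3.43% of the 32817 RefSeq promoters of the same length (250 bases before to 50 after the start) held the interferon-stimulated response element, 4.80% the kappa B element and 37.4% the CCAAT box. In *B2m* the interferon-stimulated response element began at base −139 and the kappa B letters at −126 from the start. The promoters of *H2-K1* and *H2-D1* had an identical run of 46 bases within the 200 bases before their starts, and the kappa B letters lay inside it, at −111 and −171. *Psmb8* alone of the 8 genes held the letters of the gamma-activated site (TTCNNNGAA), at −97, against 8.29% of all promoters. *Cd274* held the letters of none of these elements, nor TGANTCA (AP-1, 7.81% of all promoters) or TGACGTCA (CRE, 1.79%). No 2 elements overlapped in the promoters of the 8 genes. A match of letters is a description of the sequence and not evidence that a factor is bound.

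The light chain of all class I molecules, beta-2-microglobulin, is encoded by *B2m* (chr2:122147686-122153083). Its region, chr2:122147300-122148168, covers the start and the first exon and was called in all 8 libraries. The fold enrichment, which is the coverage of a peak divided by the local background of the same library, was 7.06 and 5.30 in the FAK-WT libraries, 5.63 and 6.06 in FAK-/-, 5.70 and 6.07 in FAK-nls, and 4.31 and 6.49 in FAK-kd. By −log10 p the peak stood among the strongest 6.18% and 14.4% of the FAK-WT lists, 13.7% and 9.33% of the FAK-/- lists, 11.3% and 11.6% of the FAK-nls lists and 41.7% and 8.11% of the FAK-kd lists. FAK-kd replicate 1 had the lowest fold enrichment, and its value lay apart from that of the other FAK-kd library. The percentages come from lists of unequal length and are not compared between libraries. The interferon-stimulated response element, the kappa B letters and the CCAAT box printed above were inside the called peak in all 8 libraries.

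**Figure D1:**
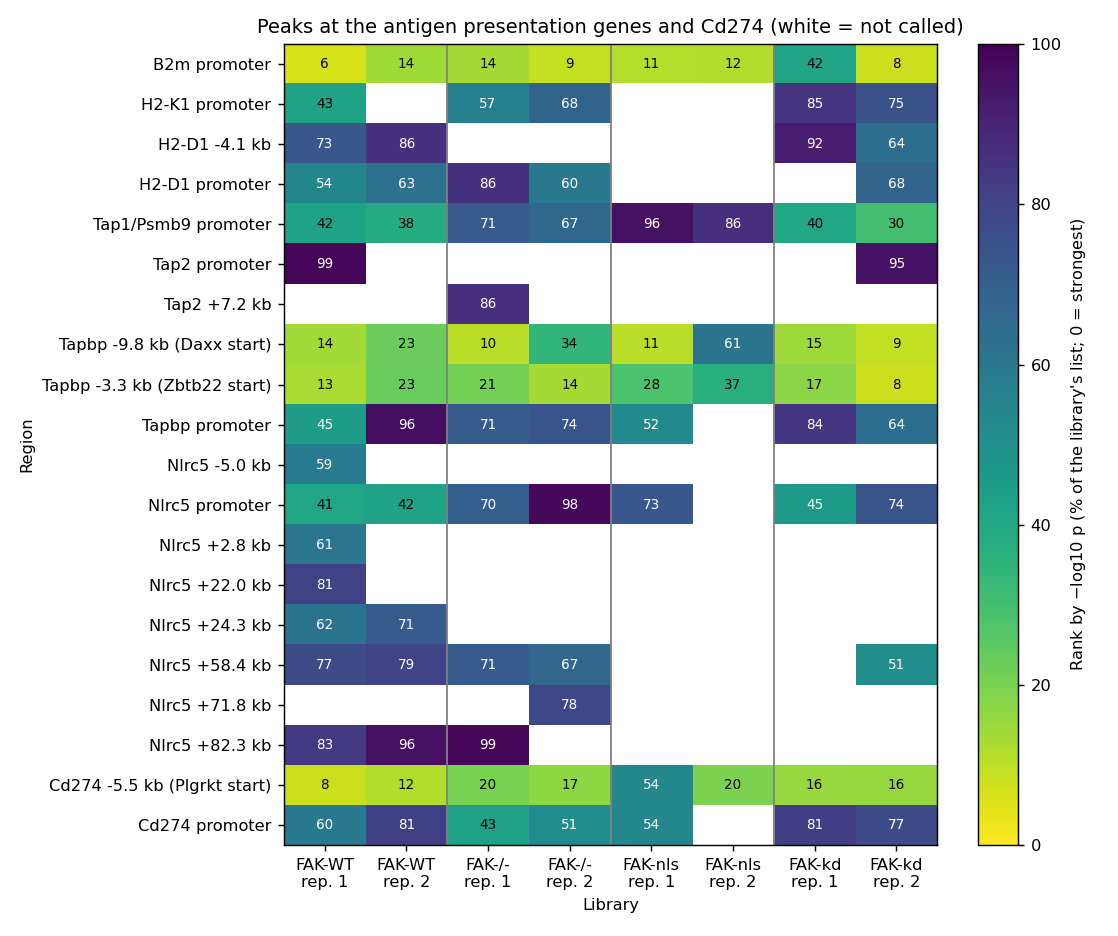
Rank of the strongest peak in each of the 20 regions (rows) in each of the 8 libraries (columns), as a percentage of the peaks in that library's list ordered by −log10 p, so that low numbers are strong peaks and white cells were not called. The lists differ in length, so percentages compare regions within a column and not libraries within a row. *B2m* and the starts of the neighbours *Daxx*, *Zbtb22* and *Plgrkt* hold most of the strong calls, and 12 of the 20 rows are white in both FAK-nls columns.

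The class I heavy chains, which hold the peptide, were called less widely. The promoter region of *H2-K1* (chr17:34000108-34000492, over the start and first coding exon of a gene at chr17:33996017-34000347) was called in 5 libraries. The fold enrichment was 5.49 in FAK-WT replicate 1, 4.40 and 4.01 in the FAK-/- libraries, and 3.58 and 3.90 in the FAK-kd libraries. FAK-WT replicate 2 and both FAK-nls libraries had no call, so the FAK-WT pair itself was split. All 5 called peaks held the kappa B letters.

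The promoter region of *H2-D1* (chr17:35262682-35263211; gene at chr17:35262730-35267499) was also called in 5 libraries, though not the same 5. The fold enrichment was 4.14 and 3.90 in FAK-WT, 3.17 and 4.02 in FAK-/- and 3.81 in FAK-kd replicate 2. FAK-kd replicate 1 and both FAK-nls libraries had no call, and the values of FAK-WT and FAK-/- overlapped. The kappa B letters were inside 3 of these 5 peaks, those of FAK-WT replicate 1, FAK-/- replicate 2 and FAK-kd replicate 2. An intergenic region centred 4.1 kb upstream of *H2-D1* (chr17:35257919-35259397) was called in the FAK-WT libraries at 3.30 and 2.97 and in the FAK-kd libraries at 2.88 and 3.75, and in none of the FAK-/- and FAK-nls libraries. The 2 FAK-kd peaks did not overlap each other, so the 4 calls share no stretch and count as 1 region through merging. These calls were weak, between 64.0% and 91.8% down their lists. In the reference, 18.4% of the 31-base words in that region, 10.0% of those in the *H2-D1* promoter region and 7.61% of those in the *H2-K1* promoter region also occur elsewhere in the genome, and how reads from such stretches were placed is not given in the sources used here.

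The genes for the transporter subunit *Tap1* (chr17:34187553-34197225) and the immunoproteasome subunit *Psmb9* (chr17:34181987-34187764) start head to head, and 1 region, chr17:34187244-34188455, covers both starts. It was called in all 8 libraries. The fold enrichment was 5.08 and 4.64 in FAK-WT, 3.44 and 3.61 in FAK-/-, 3.23 and 3.70 in FAK-nls, and 4.41 and 5.69 in FAK-kd. Both FAK-WT libraries and both FAK-kd libraries were thus above all 4 libraries of FAK-/- and FAK-nls. In rank the peak was number 22519 and 14908 in the FAK-WT lists, 30675 and 23493 in FAK-/-, 23335 and 21570 in FAK-nls, and 13303 and 13694 in FAK-kd. These ranks come from lists of unequal length and are not compared between lines here; ranks over shared regions follow below. The called peaks lay at different places in the region, with no stretch common to all 8, and those of FAK-WT replicate 2 and FAK-nls replicate 1 did not overlap. The values at *Tap1* and *Psmb9*, and the limma test given later, therefore compare the strongest peak in the region and not 1 shared stretch. The CCAAT box between the genes was inside the called peak in 6 libraries and outside it in both FAK-nls libraries.

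*Psmb8* (chr17:34197721-34201454), a further immunoproteasome subunit, had no called promoter in any library. The *Tap1* and *Psmb9* region was the only one that reached into the 10 kb upstream, which begin at chr17:34187721. The peak of FAK-WT replicate 2 in that region ended before this, at 34187545, and belongs to the window through merging alone. *Tap2* (chr17:34203527-34216321), the partner of *Tap1* in the transporter, had a promoter call in 2 libraries, at 2.99 in FAK-WT replicate 1 and 3.05 in FAK-kd replicate 2. Those are the 2 longest lists, and the peaks stood 98.7% and 95.3% down them. An intronic region of *Tap2* 7.2 kb past its start was called in FAK-/- replicate 1 alone, at 3.42.

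Tapasin is encoded by *Tapbp* (chr17:33915899-33929292). Its promoter region, chr17:33919255-33920963, was called in 7 libraries, with a fold enrichment of 3.73 and 2.58 in FAK-WT, 2.93 and 2.89 in FAK-/-, 3.88 in FAK-nls replicate 1, and 2.81 and 3.06 in FAK-kd. FAK-nls replicate 2 had no call, and the FAK-WT pair spanned the FAK-/- and FAK-kd pairs. The peak of FAK-WT replicate 2 did not overlap those of FAK-/- replicate 1 and FAK-nls replicate 1. Of the 15 regions called in at least 2 libraries, 11 had a stretch common to all called peaks, and the 4 without one were the *Tapbp*, *Nlrc5*, and *Tap1* and *Psmb9* promoters and the region upstream of *H2-D1*. The stronger peaks on the upstream side of that promoter lie at the starts of other genes. The region chr17:33908712-33910298 covers the start of *Daxx* and ranged from 4.06 to 6.14 over the 8 libraries, and chr17:33915693-33916281 covers the start of *Zbtb22*, and the most upstream annotated start of *Tapbp*, and ranged from 4.19 to 5.50. From the position alone the first cannot be assigned to *Tapbp*, and for the second the 2 genes cannot be told apart.

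**Figure D2:**
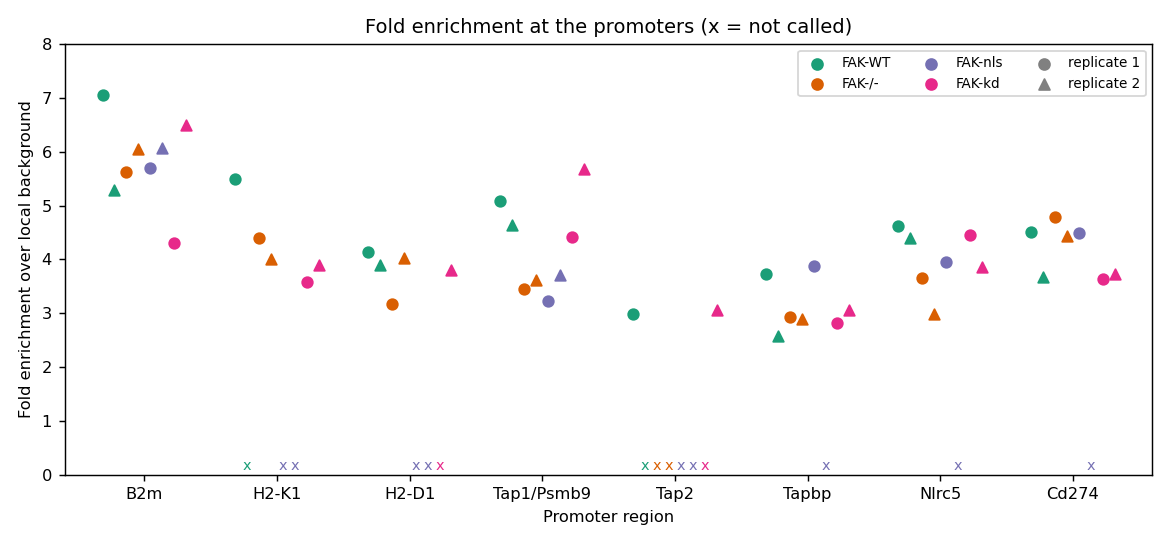
Fold enrichment of the strongest peak over the local background (vertical axis, no unit) in the 8 called promoter regions, with 1 symbol per library, circles for replicate 1, triangles for replicate 2, colours for the line and a cross where there was no call. At *Tap1* and *Psmb9* the FAK-WT and FAK-kd symbols (4.41 to 5.69) lie above the FAK-/- and FAK-nls symbols (3.23 to 3.70), and at *B2m* the lines overlap.

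*Nlrc5* (chr8:94434356-94527272) had the most regions of the 10 genes, 8 in all. Its promoter region, chr8:94433825-94434721, was called in 7 libraries. The fold enrichment was 4.62 and 4.39 in FAK-WT, 3.66 and 2.99 in FAK-/-, 3.96 in FAK-nls replicate 1, and 4.46 and 3.86 in FAK-kd. The FAK-WT values were above the FAK-/- values, and FAK-kd replicate 1 lay within the FAK-WT pair. The peaks of FAK-/- replicate 2 and FAK-kd replicate 1 did not overlap. The interferon-stimulated response element at the *Nlrc5* start (TTTCAGTTTC, the reverse complement of the letters sought) was inside 5 of the 7 called peaks, in all libraries of FAK-WT and FAK-kd and in FAK-/- replicate 1.

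The other 7 regions of *Nlrc5* had fewer calls. The region 24.3 kb past the start, in an intron (chr8:94458473-94458989), was called at 4.37 and 3.96 in FAK-WT and in no other library. It was the only one of the 20 regions called in the FAK-WT pair alone, a pattern that 1.99% of all regions had. Neither FAK-WT peak there was among the 24383 strongest of its list, since their ranks were 33092 and 27708. The region 58.4 kb past the start (chr8:94492022-94493512, over coding exons) was called at 3.51 and 3.35 in FAK-WT, 3.53 and 3.60 in FAK-/- and 4.61 in FAK-kd replicate 2. The region 82.3 kb past the start (chr8:94516231-94517223) was called at 3.53 and 3.07 in FAK-WT and 2.88 in FAK-/- replicate 1. The FAK-/- call has a −log10 q of 1.22, the only one of the 92 calls at these genes with a q-value above 0.05. In the sequence of that region 17.9% of the 31-base words occur elsewhere in the genome. The remaining 4 regions of *Nlrc5* were each called in a single library, 3 of them in FAK-WT replicate 1, the longest list.

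*Cd274* (chr19:29367455-29388095) had 2 regions. Its promoter region, chr19:29367087-29367826, was called in 7 libraries, with a fold enrichment of 4.51 and 3.67 in FAK-WT, 4.79 and 4.44 in FAK-/-, 4.48 in FAK-nls replicate 1, and 3.64 and 3.73 in FAK-kd. FAK-nls replicate 2 had no call. In rank the peak was number 31977 and 31590 in the FAK-WT lists and 26784 and 35275 in the FAK-kd lists, against 18505 and 18139 in FAK-/- and 13071 in FAK-nls replicate 1. The lists differ in length, and the ranks of FAK-WT and FAK-/- over shared regions are given below. The stronger region 5.5 kb upstream, chr19:29361566-29362430, covers the start of *Plgrkt*, and its fold enrichment was 7.85 and 6.15 in FAK-WT, 5.71 and 6.01 in FAK-/-, 4.47 and 5.81 in FAK-nls, and 5.73 and 6.59 in FAK-kd. The FAK-WT pair was above the FAK-/- and FAK-nls pairs and overlapped the FAK-kd pair. No peak was called further inside *Cd274*.

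**Figure D3:**
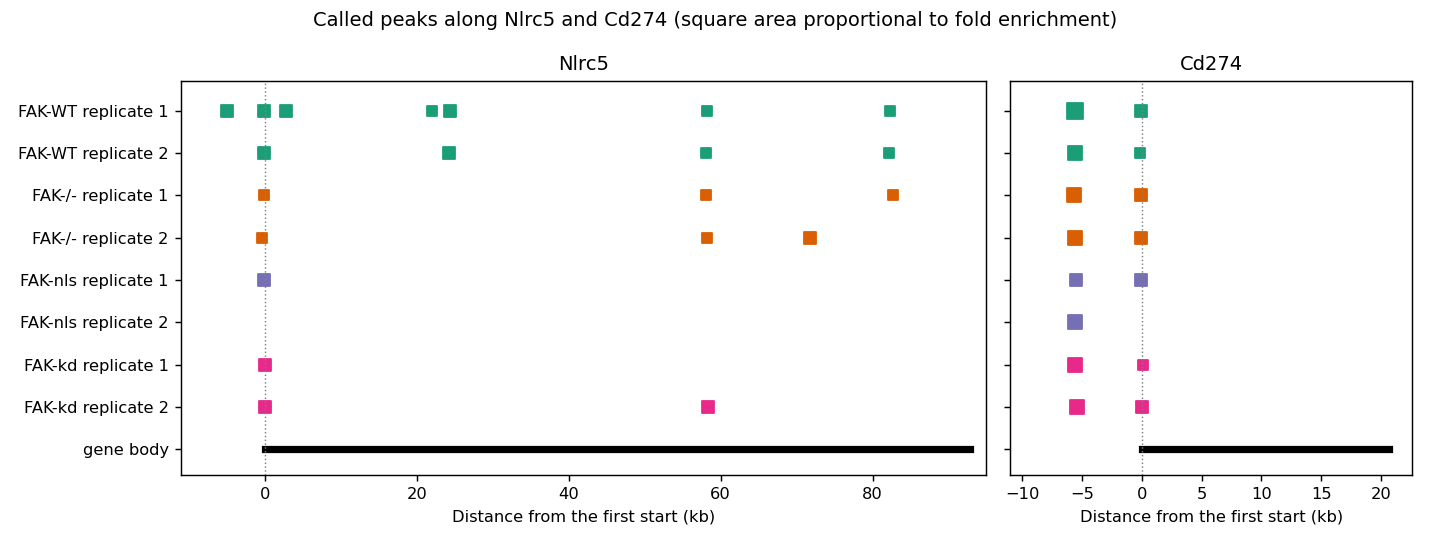
Called peaks along *Nlrc5* (left) and *Cd274* (right) in each library, by the distance of the peak centre from the first protein-coding start in kb, with the area of a square proportional to the fold enrichment and the gene body as a black bar. The peaks at 24.3 kb in *Nlrc5* are present in the FAK-WT rows only, and the larger squares at *Cd274* are those at the start of *Plgrkt*.

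Among themselves the 20 regions fell into 5 that were called in all 8 libraries (25.8% of all regions were), 5 that were called in 1 library (28.6% of all regions) and 10 in between. At equal peak number 4 of 11 regions were called in all 8, where 32.8% of all regions were. Of the 5 called everywhere in the full lists, 3 were the starts of *Daxx*, *Zbtb22* and *Plgrkt*, and the other two were *B2m* and the start shared by *Tap1* and *Psmb9*. There were 92 calls at the 20 regions, of which 6 were among the strongest 10% of their list and 52 lay below the middle of it.

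The comparison of FAK-WT with FAK-/- cells asks which regions differ with FAK. As described, these lines also differ in transduction and hygromycin selection, which cannot be told apart from FAK here. At the 10 genes, 2 of 20 regions had a call in both FAK-WT and neither FAK-/- library, as did 4.89% of all regions. They were the region upstream of *H2-D1* and the intronic region of *Nlrc5* at 24.3 kb. None had the opposite pattern, against 1.18% of all regions. When each list was shortened to its 24383 strongest peaks, 11 of the 20 regions had a call, and the *Nlrc5* promoter was then called in both FAK-WT and neither FAK-/- library (3.46% of all regions) and the *Cd274* promoter in both FAK-/- and neither FAK-WT library (3.31%). Leaving out FAK-WT replicate 2 raised the first count from 2 to 6, and 20.4% of all regions then had the pattern. Leaving out FAK-WT replicate 1 put the *H2-K1* promoter into the opposite group, which then held 4.68% of all regions. With 2 libraries against 2 no single region can be tested by permutation, so these counts are descriptions.

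The comparison with FAK-nls cells asks about nuclear localization. Here 5 of 20 regions had a call in both FAK-WT and neither FAK-nls library, beside 15.3% of all regions, and they were the promoter and the upstream region of *H2-D1* and the *Nlrc5* regions at 24.3, 58.4 and 82.3 kb. None was called in both FAK-nls and neither FAK-WT library (0.248% of all regions). In all, 12 of the 20 regions had no call in either FAK-nls library, as did 57.9% of all regions. At equal peak number the count of 5 fell to 0, beside 4.92% of all regions, and the opposite count was 0 as well, beside 4.29%, so none of these separations remained among the stronger peaks. Without FAK-WT replicate 2 the count was 10, beside 37.6% of all regions, and without FAK-nls replicate 1 it was 8, beside 19.5%.

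The comparison with FAK-kd cells asks about kinase activity. Of 20 regions, 2 had a call in both FAK-WT and neither FAK-kd library (4.33% of all regions), those of *Nlrc5* at 24.3 and 82.3 kb, and none the other way (0.83%). At equal peak number both counts were 0, where 3.11% and 2.65% of all regions had these patterns. Without FAK-WT replicate 2 the count of 2 became 5, beside 18.1% of all regions, and without FAK-kd replicate 2 it became 4, beside 11.8%. The 3 comparisons share the FAK-WT libraries and are not independent of each other.

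Per library, 18 and 13 of the 20 regions were called in FAK-WT, 13 and 12 in FAK-/-, 8 and 5 in FAK-nls, and 10 and 13 in FAK-kd. In the same order these are 90% and 65%, 65% and 60%, 40% and 25%, and 50% and 65% of the 20 regions, where 77.0% and 55.9%, 61.7% and 50.4%, 34.9% and 35.7%, and 47.1% and 65.8% of all regions were called. FAK-WT had a mean of 15.5 ± 3.54, FAK-/- had 12.5 ± 0.707, FAK-nls had 6.50 ± 2.12 and FAK-kd had 11.5 ± 2.12 (SD over n = 2 libraries). *Nlrc5* alone gave 8 of the 20 regions. Its calls were 7 and 4 in FAK-WT, 3 and 3 in FAK-/-, 1 and 0 in FAK-nls, and 1 and 2 in FAK-kd. These means and the test below therefore rest in large part on 1 gene. The 2 lowest counts were those of FAK-nls, whose lists were also the shortest. The lines accounted for 79.2% of the variance, which was reached in 9 of the 105 divisions of the libraries into 4 pairs (p = 0.0857 by exact permutation, where 0.00952 is the smallest p that can be had). For all regions the share was 69.0% (exact permutation test, p = 0.171). At equal peak number the counts were 8 and 6, 5 and 9, 8 and 5, and 6 and 6 in the same order, and the lines then held 8.66% of the variance (exact permutation test, p = 1). In the full lists the longest list, that of FAK-WT replicate 1, had the most calls, 18. The FAK-nls lists of 24383 and 24959 peaks had 8 and 5 calls. Whether list length accounts for the differences between lines was not tested.

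**Figure D4:**
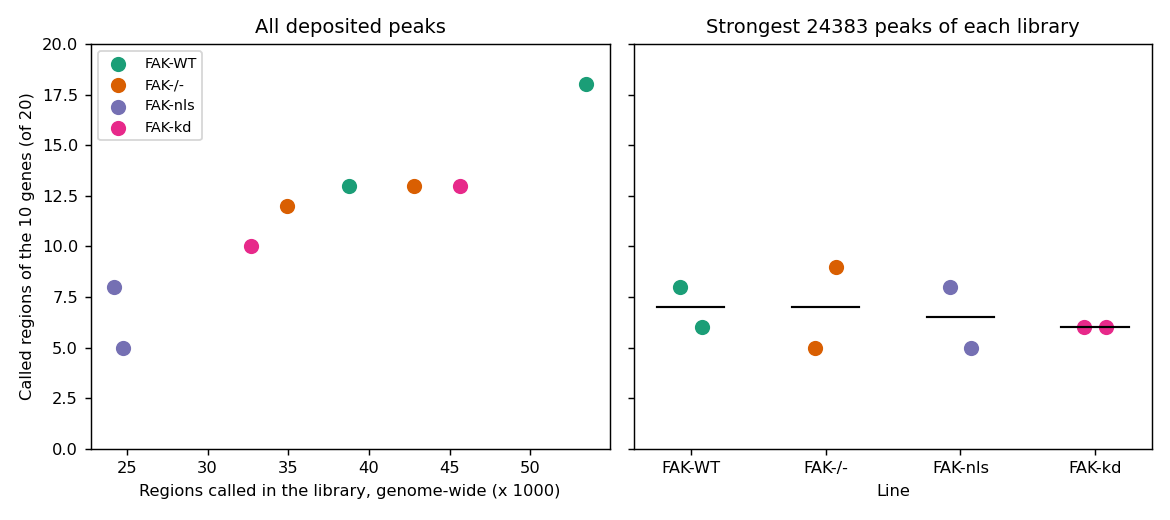
Number of the 20 regions called in each library (vertical axis), on the left against the number of all regions called in that library and on the right by line among the 24383 strongest peaks of each list, with a point per library and a bar at the mean of 2. On the left the count is 5 and 8 in FAK-nls and 18 in FAK-WT replicate 1, and on the right all lines lie between 5 and 9.

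To compare peak strength where every library had a call, peaks were ranked within each pair of lines over the regions called in all 4 libraries. Against FAK-/- (10 of the 20 regions), 3 regions ranked higher in both FAK-WT libraries than in both FAK-/- libraries, where 20.5% of all regions did, namely the *Tap1* and *Psmb9* promoter, the *Nlrc5* promoter and the *Plgrkt* start upstream of *Cd274*. The *Cd274* promoter and the *Nlrc5* region at 58.4 kb ranked lower in both FAK-WT libraries (20.9% of all regions). For the *Cd274* promoter the ranks among 27992 shared regions were 24754 and 25671 in FAK-WT and 17450 and 17375 in FAK-/-. Against FAK-nls (5 regions) the *Tap1* and *Psmb9* promoter and the *Plgrkt* start ranked higher in FAK-WT (21.3%) and *B2m* lower (22.2%). Against FAK-kd (9 regions) the *Plgrkt* start ranked higher (17.6%), while the *Daxx* and *Zbtb22* starts and the *Tap1* and *Psmb9* promoter ranked lower (18.8%).

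The fold enrichment of the 5 regions called in all libraries was then tested with limma on quantile-normalized log2 values, in a fit over all 17917 regions called in all 8 libraries. None of the 5 passed an adjusted p of 0.05 in any of the 3 comparisons, where 0.00558% (1), 0% (0) and 0.0167% (3) of all regions passed against FAK-/-, FAK-nls and FAK-kd. At an unadjusted p of 0.05, 1 of the 5 passed against FAK-/-, 1 against FAK-nls and none against FAK-kd, as did 1145, 2749 and 980 of all regions. In each case it was the *Tap1* and *Psmb9* promoter. Its normalized log2 fold enrichment was 2.17 and 2.24 in the FAK-WT libraries, 1.82 and 1.94 in FAK-/-, 1.68 and 1.90 in FAK-nls, and 2.21 and 2.34 in FAK-kd. The difference FAK-WT minus FAK-/- was 0.33 (SE 0.14, 95% interval 0.03 to 0.63; limma, Benjamini-Hochberg adjusted p = 0.732). FAK-WT minus FAK-nls was 0.42 (SE 0.14, 95% interval 0.12 to 0.71; limma, adjusted p = 0.182), and FAK-WT minus FAK-kd was −0.07 (95% interval −0.36 to 0.23; limma, adjusted p = 0.999). Leaving out any 1 library of the 2 lines compared gave 0.27 to 0.38 for the first difference and 0.31 to 0.54 for the second. Those fits leave 1 library in a line, so they are given for the size of the difference and not as tests. With the pileup, which is the coverage not divided by the local background, in place of the fold enrichment, they shrank to 0.017 (95% interval −0.40 to 0.43) and 0.064 (−0.35 to 0.48), so the difference at *Tap1* and *Psmb9* rests on the choice of measure.

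*B2m* differed by −0.03 from FAK-/- (95% interval −0.36 to 0.29), by −0.15 from FAK-nls (−0.47 to 0.17) and by 0.18 from FAK-kd (−0.14 to 0.51), each given as FAK-WT minus the other line on the log2 scale. Leaving out 1 library of the 2 lines compared gave −0.14 to 0.067, −0.24 to −0.063 and 0.0075 to 0.35 against FAK-/-, FAK-nls and FAK-kd. The *Plgrkt* start upstream of *Cd274* was higher in FAK-WT by 0.16, 0.26 and 0.16 in the same order, with adjusted p of 0.960, 0.412 and 0.999 (limma). With 1 library of the 2 lines compared left out, these differences were 0.067 to 0.24, 0.089 to 0.43 and 0.11 to 0.21. The 95% intervals are wide enough that differences of this size cannot be told from none. In simulated data with these regions and libraries, the same test found 64.5% of 200 regions changed by 1 on the log2 scale and 0% of 200 changed by 0.5, for FAK-WT against FAK-/-.

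**Figure D5:**
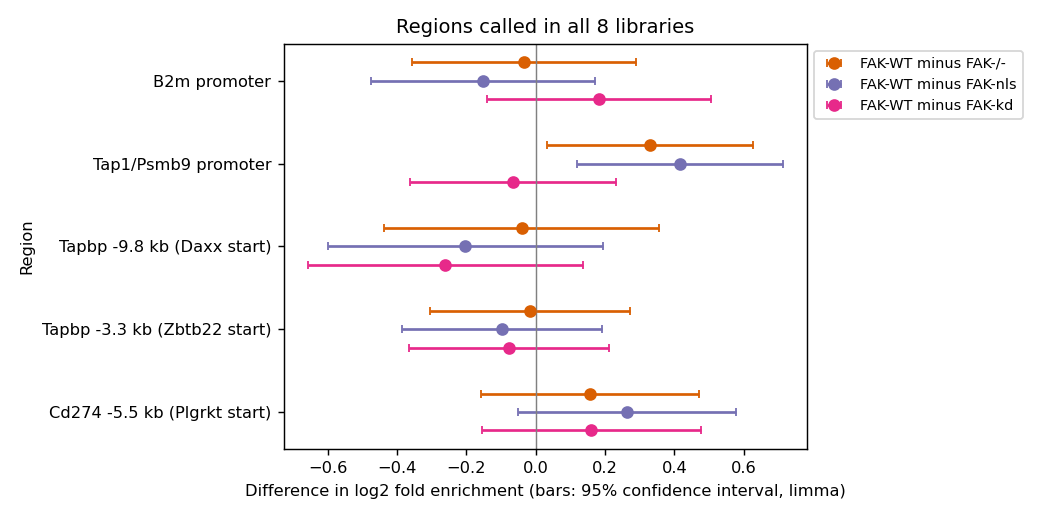
Difference in quantile-normalized log2 fold enrichment, FAK-WT minus each other line (horizontal axis), for the 5 regions called in all 8 libraries, with points for the estimates and bars for the 95% confidence intervals of limma. The intervals of the *Tap1* and *Psmb9* promoter against FAK-/- (0.03 to 0.63) and FAK-nls (0.12 to 0.71) lie above 0 before adjustment, and the remaining 13 include 0.

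Counted by gene, 9 and 7 of the 10 genes had a called promoter in the FAK-WT libraries, 8 and 8 in FAK-/-, 6 and 3 in FAK-nls, and 7 and 9 in FAK-kd. Of 21938 protein-coding genes, 52.3% and 49.8%, 51.5% and 48.9%, 44.0% and 44.1%, and 48.6% and 51.6% had one in the same libraries. A promoter was called in all 8 libraries for *B2m*, *Tap1* and *Psmb9*, which is 3 of the 10 genes beside 40.3% of all, and in no library for *Psmb8* (43.4% of all genes). The remaining 6 genes had a promoter call in 2 to 7 libraries. FAK-nls replicate 2 had the promoter calls of *B2m*, *Tap1* and *Psmb9* and of no other member. Only starts of transcripts in the GENCODE basic set were counted here. The most upstream annotated start of *Tapbp* is not among them, and the region over it, shared with the *Zbtb22* start, was called in all 8 libraries.

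The wider pathway was described over 47 further genes with 106 regions. Over all protein-coding genes, 40.3% had a called promoter in all 8 libraries and 43.4% in none. Of the 8 genes for peptide processing and loading, 6 had a called promoter in all 8 libraries, *Psmb10*, another immunoproteasome subunit, in 7, and *Tapbpl*, a relative of tapasin, in 6. Of the 10 other class I genes, 1 was called in all 8 (*H2-M3*), *H2-Q4* and *H2-T24* in 3, *H2-Q1* in 1 and 6 in none. Of the 20 genes of interferon signalling and its regulators, 18 were called in all 8, *Irf9* in 6, and *Ciita*, the class II transactivator, in none. Of the 9 further checkpoint ligands, 5 were called in all 8, *Cd276* in 6, *Lgals9* in 4, *Pdcd1lg2*, which encodes PD-L2, in 1 and *Cd86* in none.

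None of the 106 regions had a call in both FAK-WT and neither FAK-/- library (4.89% of all regions), 13 (12.3%) in both FAK-WT and neither FAK-nls library (15.3% of all regions), and 6 (5.66%) in both FAK-WT and neither FAK-kd library (4.33% of all regions). In the opposite direction there was 1, the *H2-T24* promoter, called at 3.70 and 4.04 in FAK-kd and in neither FAK-WT library, which is 0.943% of the 106 beside 0.83% of all regions. At equal peak number FAK-/- gave 1 region in the FAK-WT direction and 4 in the opposite one (3.46% and 3.31% of all regions), FAK-nls gave 1 and 3 (4.92% and 4.29%), and FAK-kd gave 2 and 1 (3.11% and 2.65%). The regions named next are therefore descriptions of single places. By the worse of its 2 ranks in the calling line, the strongest of these regions was an intronic region of *Jak1*, the kinase of interferon receptors (chr4:101256472-101257099), with 6.41 and 4.32 in FAK-WT and no call in FAK-nls, and it was the only one named here that kept its pattern at equal peak number. The promoter of *Irf9*, a subunit of the factor that binds the interferon-stimulated response element, had 5.15 and 4.93 in FAK-WT and no call in FAK-nls. A region 8.2 kb upstream of *Irf1* had 3.82 and 2.66 in FAK-WT and no call in FAK-nls. At the end of *Socs1*, an inhibitor of JAK kinases, calls of 2.93 and 2.56 in FAK-WT had no counterpart in FAK-kd. Further regions with a call in both FAK-WT libraries and none in FAK-nls, FAK-kd or both lay at *H2-T24*, *Vtcn1*, *H2-Q4*, *Ciita*, *Pvr*, *Irf2*, *Cd276* and *Tapbpl*, and the worse of their FAK-WT ranks was between 30515 and 46586. Of the 51 pathway regions called in all 8 libraries, none passed the limma threshold in any comparison (unadjusted p under 0.05 in 2, 7 and 3 against FAK-/-, FAK-nls and FAK-kd, which is 3.92%, 13.7% and 5.88% of them beside 6.39%, 15.3% and 5.47% of all regions).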

How the data were processed

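ATAC-seq libraries were assigned to lines by their titles, with 2 replicates a line that the authors call biological. The authors aligned reads to mm10 with the bcbio pipeline and called broad peaks in each sample separately with MACS2 (version 2.1.1 per the submitters' processing notes) at a q-value of 0.05, although some deposited peaks have a −log10 q-value as low as 1, and the lists were used unfiltered. The handling of duplicates and of reads with several placements is not given in the sources used here. Each deposited peak has a position, a pileup (coverage signal), a −log10 p-value, a −log10 q-value and a fold enrichment, a ratio to the local background, each averaged over the peak. They hold no read counts per region, so only calls, ranks and fold enrichment were compared; the read totals per library that the study gives were not used.

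Peaks on the assembled chromosomes were merged into regions by an overlap of at least 1 bp (no 2 libraries shared more than 0.0361% of identical peaks). Genes come from GENCODE vM21 on GRCm38. A promoter region lies at least partly between 500 bp before and 2000 bp after the start of a protein-coding transcript in the GENCODE basic set. Distances are from the region's centre to the first such start. The strongest peak by −log10 p stands for a region. For equal peak number the 24383 strongest peaks of each list were kept. Log2 fold enrichment was quantile-normalized and tested with limma 3.58.1 (R 4.3.3), all lines in 1 fit, with Benjamini-Hochberg adjustment over 17917 regions and no pseudocount. The test was checked on simulated data. Counts per library were tested by exact permutation. Repeated 31-base words were counted over the reference genome. Python 3 scripts did the rest.

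All 10 genes were named with every region. Of the 47 other pathway genes, at most 12 were named for a region that separated lines, first by limma calls and then by the worse of the 2 ranks. *Psmb10*, *H2-M3*, *H2-Q1*, *Lgals9*, *Pdcd1lg2* and *Cd86* are named outside this rule, to account for the promoter counts of their lists, after their values were seen. The members and lists were chosen with earlier results of these data known. Alternatives were another normalization, pileup, a minimum −log10 q of 3, equal peak number, 2 kb upstream, regions called in at least 6 libraries, each library left out in turn and a block for the replicate number.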

Additional observations from a re-analysis of the deposited data

How the results depend on the processing

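The reads come from FVB mice and the reference is of the C57BL/6J strain, and the class I genes vary between strains; the part of this in the calls was not tested. Fold enrichment averaged over a broad peak, 2 libraries a line and lists without read counts per region limit every comparison.

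The regions called in both FAK-WT and neither FAK-/- library were 1 in place of 2 at equal peak number and with 2 kb upstream, and those of the opposite pattern 1 in place of 0 at equal peak number. Against FAK-nls there were 0 in place of 5 at equal peak number and 3 with a minimum −log10 q of 3 (13.2% of all regions), of which 1, the *H2-D1* promoter, was among the 5 and the others were the *Tap1* and *Psmb9* and *Nlrc5* promoters. Against FAK-/- that minimum gave 2 regions (3.86% of all regions), those same 2 promoters, and neither was among the 2 of the full lists. Against FAK-kd there were 0 in place of 2 under both (3.16% of all regions at that minimum). Leaving out 1 library of the 2 lines compared gave 2 to 6, 5 to 10 and 2 to 5 regions with the FAK-WT pattern against FAK-/-, FAK-nls and FAK-kd, and 0 to 1, 0 to 0 and 0 to 1 with the opposite one. The share of variance between lines was 69.7% to 90.8% when 1 library was left out, and it passed the test only without FAK-WT replicate 2 (exact permutation test, p = 0.0286). It was 54.0% with a minimum −log10 q of 3, 67.1% for covered length and 78.4% with 2 kb upstream. None of the limma calls over all regions was at these genes. Over all regions median centring gave 5 calls against FAK-/-, pileup gave 34, 213 and 19 against FAK-/-, FAK-nls and FAK-kd, and regions called in at least 6 libraries gave 1 against FAK-nls. Leaving out 1 library of the 2 lines compared gave 0 to 2 against FAK-nls, 0 to 0 against FAK-/- and 0 to 0 against FAK-kd.

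Some small differences changed sign. With pileup, FAK-WT minus FAK-/- was 0.049 at *B2m*, and FAK-WT minus FAK-nls was 0.11 at the *Daxx* start and 0.13 at the *Zbtb22* start. When 1 library of the 2 lines compared was left out, FAK-WT minus FAK-/- lay between −0.20 and 0.12 at the *Daxx* start, −0.10 and 0.068 at the *Zbtb22* start and −0.14 and 0.067 at *B2m*. FAK-WT minus FAK-nls lay between −0.55 and 0.13 at the *Daxx* start, and FAK-WT minus FAK-kd between −0.16 and 0.0064 at the *Zbtb22* start. The cause of these changes was not tested.

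Replicates of equal number did not deviate together (correlations over 17917 regions between −0.202 and 0.055). The value of −0.202 was that of FAK-WT with FAK-kd. Whether libraries of equal number shared a batch was not tested. With a replicate block, limma called 1, 0 and 2 regions in all against FAK-/-, FAK-nls and FAK-kd, and none at these genes. With the FAK-kd numbers crossed, chosen after seeing the data, the counts were again 1, 0 and 2.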
